A study of Mus musculus with 24 samples.

Results

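The postsynaptic scaffold and the adhesion molecules of the synapse were followed through 40 genes, out of 38355 genes in the deposited count tables, in RNA from the CA1 subfield of the mouse hippocampus. The genes were chosen by function, by symbol, and not by a rule on a measured value, but with earlier results of these data known. Each matched 1 Ensembl gene in the deposited comparison tables. They comprise 4 membrane-associated guanylate kinases (MAGUKs) and their 4 Dlgap binding proteins, 5 Shank and Homer scaffolds, 3 neurexins and relatives, 3 neuroligins, 11 adhesion proteins with leucine-rich repeats, the inhibitory scaffold gephyrin and 9 signalling proteins of the postsynaptic density. The study measured polyadenylated RNA by sequencing in mice that lacked, or kept, the lysine acetyltransferase Kat2a in excitatory forebrain neurons, either after a short exposure to novelty or naive. Its design compares genotypes within each exposure and exposures within each genotype.

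All mice were C57BL/6J, 3 to 5 months old, and all carried floxed Kat2a (Kat2a fl/fl). Conditional knockout (cKO) mice carried CamKII_alpha-cre in addition, a Cre recombinase under a promoter that is active in excitatory forebrain neurons, so interneurons, glia and vessel cells keep Kat2a. The 24 libraries comprise 7 from cKO mice after 15 min of novelty (cKO novelty), 6 from cKO mice with no exposure (cKO naive), 5 from control mice after 15 min of novelty (control novelty) and 6 from control mice with no exposure (control naive). The labels do not say that each library came from a separate mouse, so the p-values measure the spread between these libraries. No group of Cre-positive mice without floxed Kat2a is in the design, so an effect of Cre itself and the loss of Kat2a cannot be told apart.

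At excitatory synapses MAGUK proteins of the Dlg family hold glutamate receptors and adhesion molecules under the membrane, and Dlgap proteins link them to Shank and Homer, which reach down to the actin cytoskeleton and to metabotropic receptors. Across the cleft, presynaptic neurexins bind neuroligins and Lrrtm proteins, and netrin-G proteins bind Lrrc4 and Lrrc4c. Receptor tyrosine phosphatases bind Lrrc4b and the Slitrk family. In CA1 these assemblies set how many receptors a synapse on a pyramidal neuron holds, and gephyrin does the same at inhibitory synapses.

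Reads assigned to genes numbered 13 to 21.2 M per cKO novelty library, 19.6 to 24.5 M per cKO naive library, 13.9 to 35.8 M per control novelty library and 10.7 to 23.4 M per control naive library. Control naive library 2 was the shallowest and had the largest share of reads without a unique position, 18%. Kat2a itself was at 35.1 ± 2.26 CPM in cKO novelty and 36.2 ± 2.42 CPM in cKO naive libraries, against 60.2 ± 3.57 CPM in control novelty and 63.6 ± 3.98 CPM in control naive libraries (SD), where CPM is counts per 1 M gene reads after TMM scaling. Its log2 fold change was -0.79 (SE 0.04, adjusted p = 9.08e-14 in edgeR), and no cKO library reached the lowest control. Homer1, an activity-induced scaffold that is not among the 40 genes, checked the exposure. It averaged 272 ± 24 CPM after novelty and 114 ± 6.92 CPM in naive cKO libraries, and 272 ± 22.5 CPM after novelty and 131 ± 12.9 CPM in naive control libraries. The library kit named in the labels does not mark strand, so sense and antisense reads over a gene cannot be separated. In dissected tissue fewer cells of a type and less RNA per cell cannot be told apart either.

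The promoters of 5 of the genes, and of Homer1 for comparison, are given here as the 250 bases before the transcription start, 5′ to 3′ on the strand of the gene, from RefSeq on build GRCm38.p6. Slitrk1, Lrrc4c and Dlgap1 were lower in cKO libraries, and Homer2 and Baiap2 were higher after novelty. Capitals mark the short form of a cAMP response element (TGACG, or CGTCA on the other strand) or a TATA motif (TATAA, or TTATA on the other strand), both searched on both strands, and no match of the one overlaps a match of the other in these sequences.
Slitrk1, chr14:108914240-108914489, minus strand: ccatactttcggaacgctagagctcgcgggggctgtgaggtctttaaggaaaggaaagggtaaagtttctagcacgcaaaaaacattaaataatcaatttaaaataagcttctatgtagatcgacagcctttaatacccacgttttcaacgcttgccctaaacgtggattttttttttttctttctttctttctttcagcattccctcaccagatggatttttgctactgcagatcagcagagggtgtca
Lrrc4c, chr2:96317919-96318168, plus strand: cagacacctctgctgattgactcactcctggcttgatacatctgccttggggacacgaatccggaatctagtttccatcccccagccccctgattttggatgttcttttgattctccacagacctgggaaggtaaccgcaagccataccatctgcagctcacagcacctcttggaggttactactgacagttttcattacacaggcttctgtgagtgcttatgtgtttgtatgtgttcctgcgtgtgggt
Dlgap1, chr17:69968823-69969072, plus strand: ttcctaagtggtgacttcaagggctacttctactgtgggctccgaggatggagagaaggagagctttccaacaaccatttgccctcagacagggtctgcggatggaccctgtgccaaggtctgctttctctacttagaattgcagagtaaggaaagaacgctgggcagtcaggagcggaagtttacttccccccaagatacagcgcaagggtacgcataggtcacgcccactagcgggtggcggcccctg
Homer2, chr7:81706926-81707175, minus strand: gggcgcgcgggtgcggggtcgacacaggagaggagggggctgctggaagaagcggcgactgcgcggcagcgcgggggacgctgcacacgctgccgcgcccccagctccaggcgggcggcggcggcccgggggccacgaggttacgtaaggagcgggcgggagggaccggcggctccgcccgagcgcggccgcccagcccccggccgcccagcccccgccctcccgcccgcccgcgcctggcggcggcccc
Baiap2, chr11:119942842-119943091, plus strand: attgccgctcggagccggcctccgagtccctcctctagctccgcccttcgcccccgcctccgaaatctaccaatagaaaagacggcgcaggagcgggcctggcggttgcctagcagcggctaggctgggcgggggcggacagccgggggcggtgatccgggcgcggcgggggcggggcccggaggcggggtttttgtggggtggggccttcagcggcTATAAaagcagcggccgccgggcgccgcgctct
Homer1, chr13:93303507-93303756, plus strand: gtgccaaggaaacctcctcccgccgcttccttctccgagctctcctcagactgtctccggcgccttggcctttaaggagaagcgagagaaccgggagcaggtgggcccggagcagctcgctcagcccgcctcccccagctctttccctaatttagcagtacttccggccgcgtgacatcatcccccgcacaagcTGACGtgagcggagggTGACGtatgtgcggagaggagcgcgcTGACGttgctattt

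The Homer1 promoter held 3 copies of TGACG, and the promoters of Slitrk1, Lrrc4c, Dlgap1, Homer2 and Baiap2 held none within these bases. A promoter was found for 33 of the 40 genes, at the RefSeq start nearest to the start of the deposited gene. For some this start lay far away, as for Dlgap4 (107260 bases), Nrxn3 (71628 bases) and Kalrn (59505 bases). Of the 33, only the promoter of Dlg3, 6773 bases away, held TGACG, against 17.8% of 32851 promoters of the same length in the table. Baiap2 had 1 TATAA close to its start, a motif found in 22.8% of all promoters. The sequences differ most in base composition. GC content was 40.4% for Slitrk1, 49.6% for Lrrc4c and 55.2% for Dlgap1, against 83.2% for Homer2 and 72.8% for Baiap2. Over the 9 promoters of genes lower in cKO libraries the median GC content was 55.2%, against 62.8% over the 24 others and 52.4% over the whole table. A match is a description of these letters and says nothing about a bound factor.

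All 40 genes were well measured. Group means ran from 20.0 CPM for Lrrtm4 to 907 CPM for Agap2, the lowest count in any library was 199 reads, and the median coefficient of variation within a group was 7.74% over the 160 combinations of gene and group. Per kb of exon, Agap2, a GTPase-activating protein of the postsynaptic density, stood highest at 144 CPM per kb. Dlg4, the main MAGUK of the excitatory synapse, followed at 53.1 CPM per kb, with Baiap2 at 51.8, Cnksr2 at 42.2, Dlgap1 at 41.9, Dlg3 at 41.1 and Nlgn2 at 39.2 CPM per kb. Lrrtm4 was lowest at 3.59 CPM per kb, below Nlgn3 at 6.37, Nlgn1 at 6.81, Slitrk4 at 6.93 and Lrrtm3 at 7.27 CPM per kb. The neuroligin Nlgn2 thus stood among the highest genes and its relatives Nlgn1 and Nlgn3 among the lowest. This scale depends on the exon model (GENCODE, all exons of a gene merged). Of the exon bases of Nlgn3 41.2%, and of Lrrtm4 25.1%, overlap another gene, so their values per kb are less certain.

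**Figure D1:**
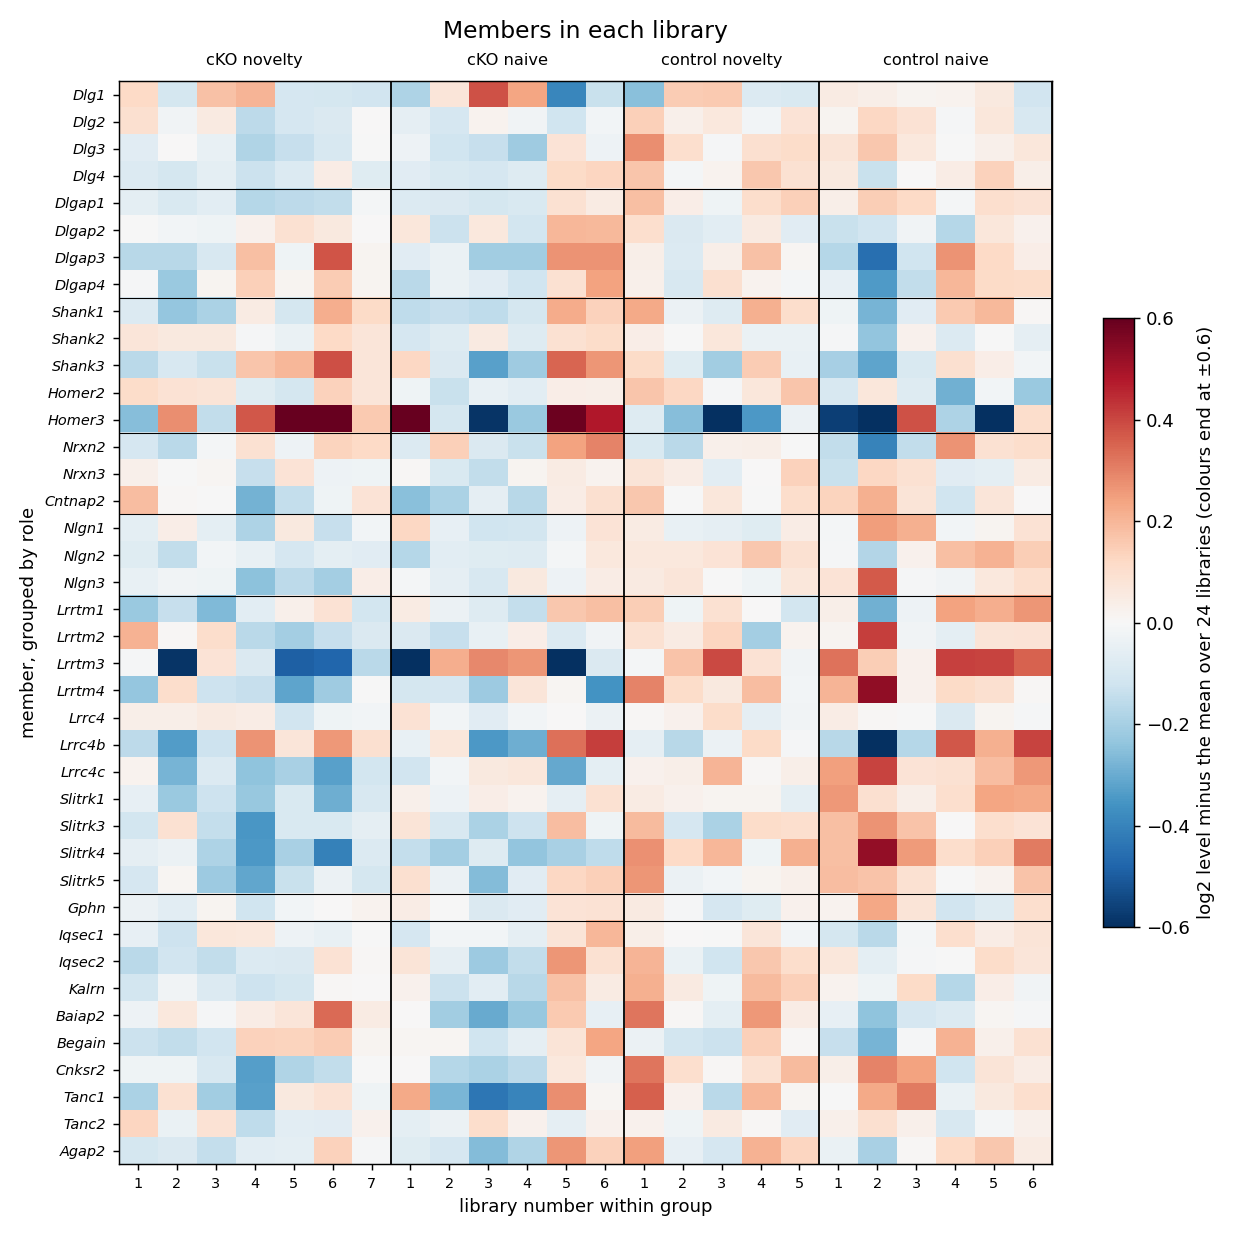
Level of each gene in each library as log2 level minus its mean over 24 libraries (colour, ending at ±0.6), with genes in rows by role and libraries in columns by group. Slitrk4 is below its mean in every cKO library, and Homer3 and Lrrtm3 vary most between libraries.

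Loss of Kat2a went with lower levels of a subset of the adhesion and scaffold genes. In the genotype average, which weighs the cKO-to-control difference after novelty and in naive mice equally in a fit over all 24 libraries, 11 of the 40 genes were lower in cKO libraries and 0 were higher (edgeR, adjusted p below 0.05). Those 11 are 27.5% of the genes, against 6.32% of all 16744 genes tested that were lower and 12% that passed in either direction. These 40 genes had at least 199 reads in every library, while all genes tested reach down to a filter at a minimum count of 10. No comparison with all genes, here or below, was matched for level. Of all genes that passed, 958 of 2017 were higher in cKO libraries, and 1190 of 2033 with upper-quartile scaling in place of TMM. The TMM factors were 0.972 to 0.9972 in control libraries and 0.997 to 1.027 in cKO libraries, so scaling bears on the genotype contrast. Of 25 calls of the 40 genes over all comparisons, 20 stood with upper-quartile scaling and 5 did not pass. The leucine-rich repeat adhesion genes made up 6 of the 11 (Slitrk4, Lrrc4c, Slitrk1, Lrrtm4, Lrrtm3 and Slitrk5), and Nlgn2, Nlgn3, Dlg3, Dlgap1 and Cnksr2 were the others. The decreases were modest, between 8% for Nlgn3 and 23.3% for Slitrk4. The median log2 fold change of the 40 genes was -0.08, against 0.01 over all genes, and 29 of 40 lay below 0, against 48% of all genes. Homer3 lay just short of the threshold in the other direction, at 0.52 (SE 0.18, adjusted p = 0.0548 in edgeR). Leaving out 1 library at a time gave 8 to 12 genes.

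**Figure D2:**
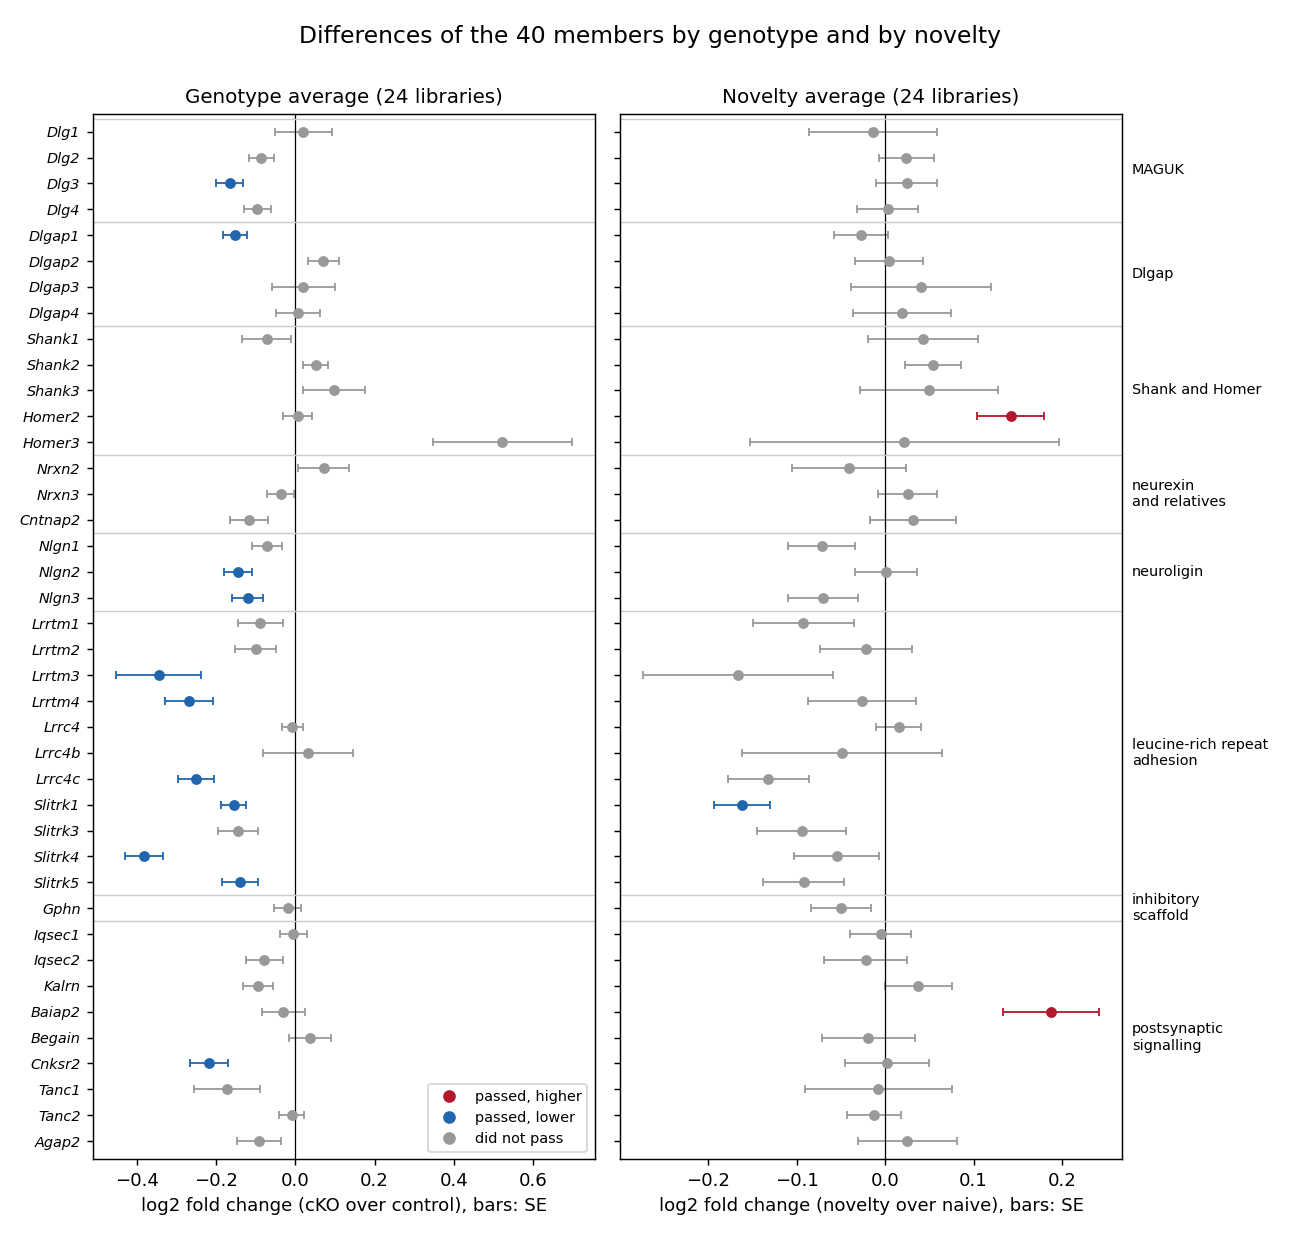
Log2 fold change of each of the 40 genes with its standard error (bars) in the genotype average (left, cKO over control) and the novelty average (right, novelty over naive), by role. Blue marks the 11 genes lower in cKO libraries and the 1 lower after novelty, red the 2 higher after novelty, and grey those that did not pass.

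Slitrk4, a postsynaptic partner of receptor tyrosine phosphatases (ENSMUSG00000046699, chrX:64264885-64276996, minus strand, GRCm38), differed most by adjusted p. Slitrk4 ranged from 45.2 to 58.4 CPM (median 52.7) in cKO novelty libraries and from 50.8 to 56.7 CPM (median 53.1) in cKO naive libraries. Slitrk4 had 58.9, 64.9, 68.8, 69.3 and 72.3 CPM in control novelty libraries and ranged from 64.4 to 86.2 CPM (median 69.6) in control naive libraries. Every cKO library thus lay below every control library, which held for 0.317% of all genes tested. The log2 fold change was -0.38 (SE 0.05, adjusted p = 8.15e-06 in edgeR) on average, -0.34 (SE 0.07, adjusted p = 0.00951 in edgeR) after novelty and -0.42 (SE 0.06, adjusted p = 0.00674 in edgeR) in naive mice. It passed in all fits that left out 1 library, and no other of the 40 genes passed in naive mice. The gene has a single coding exon and the lowest GC content of the 40 longest transcripts, 34.7%.

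Lrrc4c, which binds netrin-G on axons (ENSMUSG00000050587, chr2:96318169-97631666, plus strand), showed a similar order of groups. Lrrc4c ranged from 106 to 135 CPM (median 116) in cKO novelty libraries and from 107 to 139 CPM (median 129) in cKO naive libraries. Lrrc4c had 133, 135, 136, 136 and 153 CPM in control novelty libraries and ranged from 140.4 to 175 CPM (median 154) in control naive libraries. The naive groups did not overlap, those after novelty did, and 10 of 13 cKO libraries lay below every control library. Its log2 fold change was -0.25 (SE 0.05, adjusted p = 0.000627 in edgeR) on average, -0.23 (SE 0.06, adjusted p = 0.0297 in edgeR) after novelty and -0.27 (SE 0.07, adjusted p = 0.0701 in edgeR) in naive mice, where it was the gene closest to the threshold. After novelty it passed in 5 of 12 fits that left out 1 library and did not pass without cKO novelty library 2, 4, 5 or 6, or control novelty library 2, 3 or 5 (adjusted p 0.0511 to 0.0826). On average it passed in 24 of 24 such fits.

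Slitrk1, another phosphatase partner, whose variants have been studied in Tourette syndrome (ENSMUSG00000075478, chr14:108909991-108914239, minus strand), was lower in cKO libraries and also lower after novelty. Slitrk1 ranged from 87.6 to 104 CPM (median 98.5) in cKO novelty libraries and from 103 to 115 CPM (median 109) in cKO naive libraries. Slitrk1 had 103, 109, 109, 109.5 and 111 CPM in control novelty libraries and ranged from 110.3 to 129 CPM (median 121) in control naive libraries. The cKO novelty libraries were lowest and the control naive libraries highest, with the other groups between them and overlapping. By genotype the log2 fold change was -0.16 (SE 0.03, adjusted p = 0.00164 in edgeR) on average and -0.16 (SE 0.04, adjusted p = 0.044 in edgeR) after novelty, and in naive mice it was -0.14 (SE 0.05, adjusted p = 0.165 in edgeR). After novelty it passed in 2 of 12 fits that left out 1 library and did not pass without cKO novelty library 2, 4, 5, 6 or 7, or control novelty library 1, 2, 3, 4 or 5 (adjusted p 0.052 to 0.111). The average passed in 24 of 24 such fits.

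The remaining Slitrk genes fell to either side of the threshold. Slitrk5, expressed in neurons and linked in mice to obsessive-like behaviour, passed on average at -0.14 (SE 0.05, adjusted p = 0.0453 in edgeR). Slitrk5 ranged from 76.7 to 95.8 CPM (median 88.6) in cKO novelty libraries and from 79.4 to 105 CPM (median 97.3) in cKO naive libraries. Slitrk5 had 92.8, 94.2, 96.2, 97.2 and 114 CPM in control novelty libraries and ranged from 95.1 to 108 CPM (median 104) in control naive libraries. The groups overlapped, with 7 of 13 cKO libraries below every control library. Slitrk5 passed in 8 of 24 fits that left out 1 library and did not pass without cKO novelty library 1, 3, 4, 5 or 7, cKO naive library 2, 3 or 4, control novelty library 1, 3, 4 or 5, or control naive library 1, 2, 3 or 6 (adjusted p 0.0507 to 0.103). Slitrk3 averaged 94.4 ± 8.4 CPM in cKO novelty and 99.7 ± 9.83 CPM in cKO naive libraries, against 103 ± 11.3 CPM in control novelty and 111 ± 7.23 CPM in control naive libraries (SD). Slitrk3, which organises inhibitory synapses, had a log2 fold change of -0.14 (SE 0.05, adjusted p = 0.0595 in edgeR) and did not pass.

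Among the Lrrtm genes, whose products bind neurexins or heparan sulphate proteoglycans, Lrrtm4 and Lrrtm3 were lower in cKO libraries. Lrrtm4 ranged from 17.5 to 23.5 CPM (median 19.9) in cKO novelty libraries and from 17.1 to 22.9 CPM (median 20.3) in cKO naive libraries. Lrrtm4 had 21.6, 22.8, 23.6, 24.8 and 26.9 CPM in control novelty libraries and ranged from 21.9 to 31.6 CPM (median 23.5) in control naive libraries. The groups overlapped, but 9 of 13 cKO libraries lay below every control library. On average the log2 fold change was -0.27 (SE 0.06, adjusted p = 0.00423 in edgeR) and passed in 24 of 24 fits that left out 1 library, while after novelty it stood just outside the threshold at -0.26 (SE 0.07, adjusted p = 0.0578 in edgeR). Of its exon bases 25.1% overlap Gm4409 on the opposite strand. Depending on the counting settings, which were not given, reads there may have been left out as ambiguous or assigned to either gene. Lrrtm3 ranged from 20.1 to 32 CPM (median 27) in cKO novelty libraries and from 19.3 to 36.8 CPM (median 31.7) in cKO naive libraries. Lrrtm3 had 29.7, 29.9, 32.1, 33.9 and 39.7 CPM in control novelty libraries and ranged from 30.8 to 40.1 CPM (median 38.2) in control naive libraries. Lrrtm3 split the cKO naive libraries, with 2 of 6 near 20 CPM. For Lrrtm3 the log2 fold change was -0.35 (SE 0.11, adjusted p = 0.0377 in edgeR) on average, and it passed in 12 of 24 fits that left out 1 library and did not pass without cKO novelty library 2, 5 or 6, cKO naive library 1, 5 or 6, control novelty library 2 or 3, or control naive library 1, 4, 5 or 6 (adjusted p 0.0518 to 0.0754). Lrrtm1 and Lrrtm2 had log2 fold changes of -0.09 and -0.10 and did not pass.

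Lrrtm1 averaged 87.4 ± 7.77 CPM in cKO novelty and 94.9 ± 8.6 CPM in cKO naive libraries, against 94.7 ± 6.66 CPM in control novelty and 98.9 ± 13.9 CPM in control naive libraries (SD). Lrrtm2 averaged 99.4 ± 10.7 CPM in cKO novelty and 97.8 ± 4.22 CPM in cKO naive libraries, against 103 ± 8.86 CPM in control novelty and 108 ± 13.7 CPM in control naive libraries (SD). Both lay slightly lower in cKO libraries at either exposure, with the genotypes overlapping. Lrrc4, which binds netrin-G, and Lrrc4b, which binds the receptor phosphatase LAR, did not share the difference of Lrrc4c in level. Lrrc4 averaged 136 ± 5.47 CPM in cKO novelty and 135 ± 5.01 CPM in cKO naive libraries, against 138 ± 5.92 CPM in control novelty and 136 ± 4.13 CPM in control naive libraries (SD). Lrrc4b averaged 93.6 ± 14.3 CPM in cKO novelty and 95.2 ± 20.5 CPM in cKO naive libraries, against 90.2 ± 6.4 CPM in control novelty and 94.5 ± 25.6 CPM in control naive libraries (SD). Their log2 fold changes of -0.01 (SE 0.03, adjusted p = 0.891 in edgeR) and 0.03 (SE 0.11, adjusted p = 0.897 in edgeR) were the nearest to 0 among the leucine-rich repeat genes. Whether Lrrc4c differed from its relatives was not tested.

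**Figure D3:**
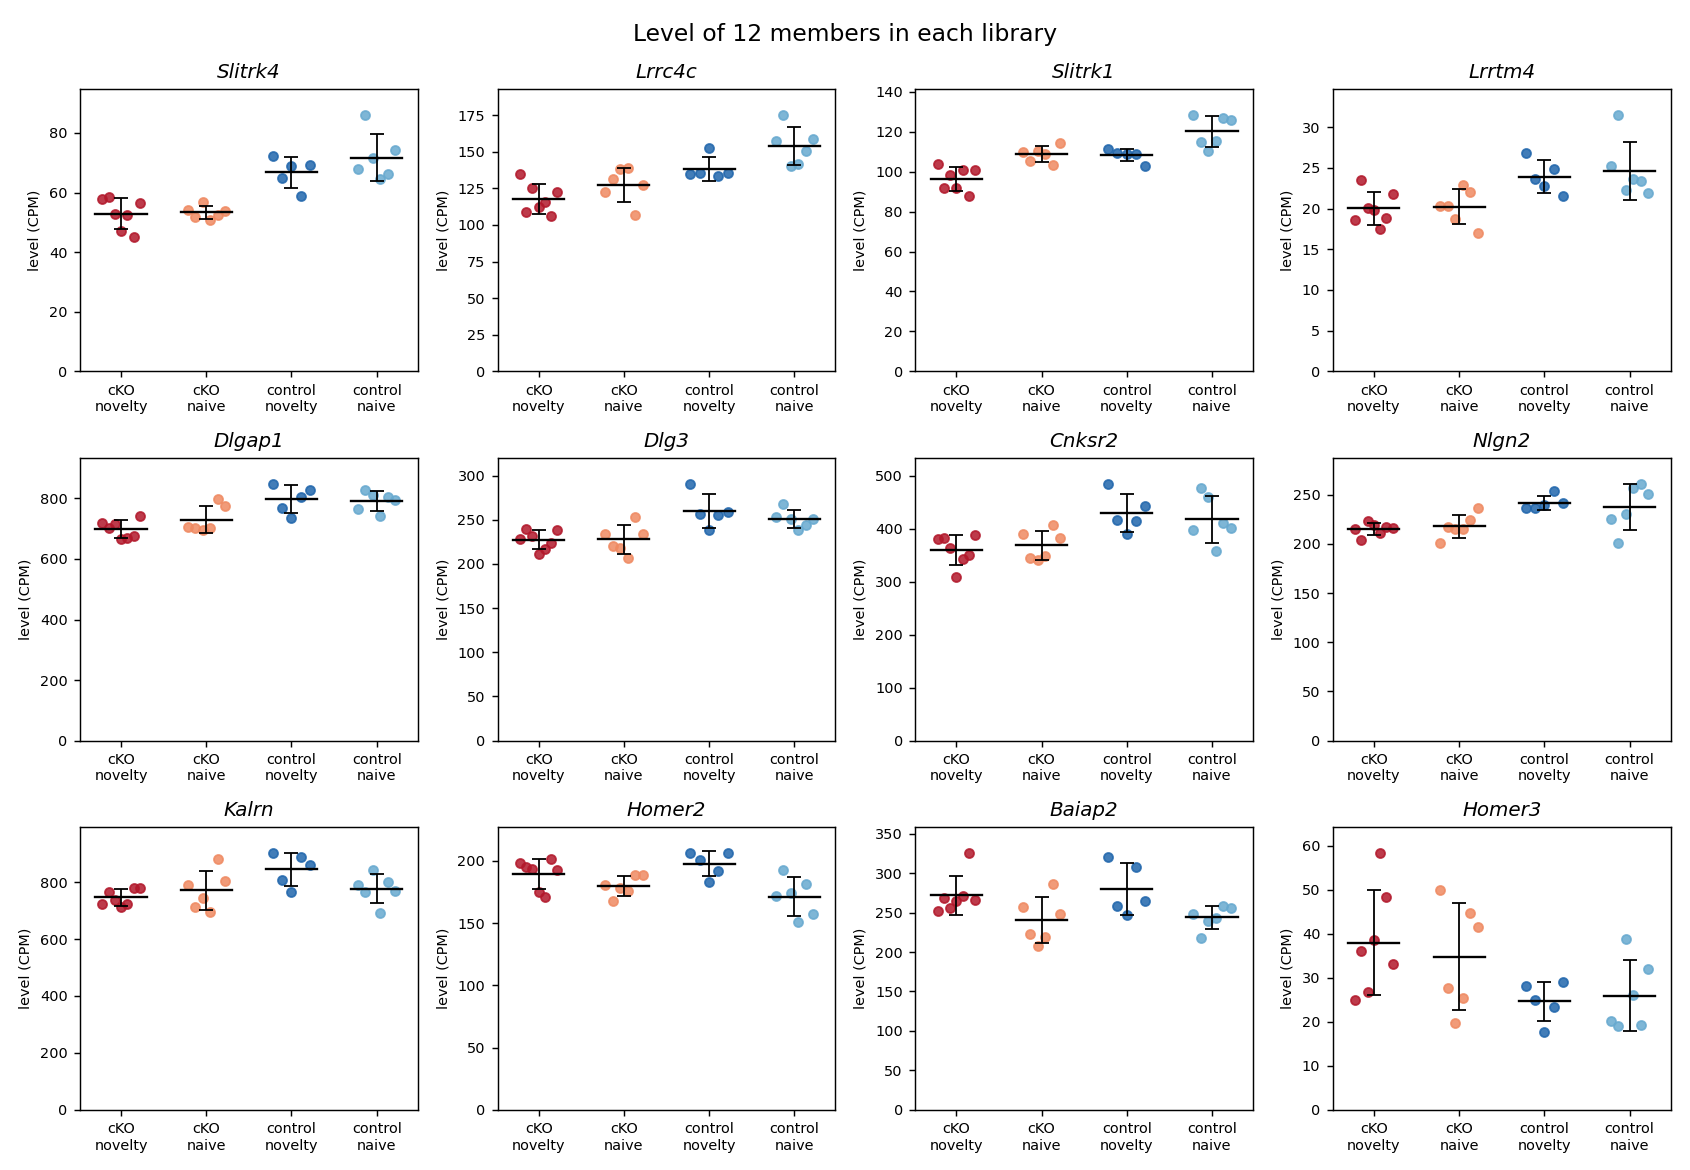
Level in CPM of 12 genes in each library (points), with the group mean (line) and SD (bars), for cKO novelty, cKO naive, control novelty and control naive libraries. Slitrk4 separates the genotypes with no overlap, Homer2 and Baiap2 are higher after novelty on average, and Homer3 spreads widely within groups.

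Of the neuroligins, the postsynaptic partners of neurexins, Nlgn2 and Nlgn3 were lower in cKO libraries. Nlgn2, the neuroligin of inhibitory synapses (ENSMUSG00000051790, chr11:69823122-69837784, minus strand), passed at -0.15 (SE 0.03, adjusted p = 0.00696 in edgeR) on average and -0.16 (SE 0.03, adjusted p = 0.0126 in edgeR) after novelty. Nlgn2 ranged from 204 to 224 CPM (median 216) in cKO novelty libraries and from 201 to 236 CPM (median 216) in cKO naive libraries. Nlgn2 had 236, 237, 239.6, 241 and 253 CPM in control novelty libraries and ranged from 200.3 to 261 CPM (median 241) in control naive libraries. After novelty the genotypes did not overlap, whereas in naive mice control library 2, at 200.3 CPM, lay below every cKO library. Both calls stood in all fits that left out 1 library. In naive mice the log2 fold change was -0.12 (SE 0.06, adjusted p = 0.416 in edgeR). Nlgn3, found at both kinds of synapse, passed only on average, at -0.12 (SE 0.04, adjusted p = 0.0453 in edgeR). Nlgn3 ranged from 49.6 to 60.5 CPM (median 57.1) in cKO novelty libraries and from 55 to 61.4 CPM (median 58) in cKO naive libraries. Nlgn3 had 57.8, 58.9, 61.1, 61.8 and 62 CPM in control novelty libraries and ranged from 58.1 to 76 CPM (median 61.9) in control naive libraries. The genotypes overlapped by a few CPM, and 7 of 13 cKO libraries lay below every control library. It passed in 9 of 24 fits that left out 1 library and did not pass without cKO novelty library 4, 5 or 6, cKO naive library 1, 2, 3 or 5, control novelty library 1, 2, 3 or 5, or control naive library 1, 2, 5 or 6 (adjusted p 0.0516 to 0.0845). Gm21986 on the same strand shares 41.2% of the exon bases of Nlgn3, so its count is uncertain.

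Nlgn1, the neuroligin of excitatory synapses, had a log2 fold change of -0.07 (SE 0.04, adjusted p = 0.238 in edgeR). Nlgn1 averaged 88.1 ± 5.35 CPM in cKO novelty and 90.2 ± 6.33 CPM in cKO naive libraries, against 90.2 ± 3.64 CPM in control novelty and 97.3 ± 8.05 CPM in control naive libraries (SD). On the presynaptic side none of the 3 genes passed. Nrxn2 had a log2 fold change of 0.07 (SE 0.06, adjusted p = 0.522 in edgeR), Nrxn3 of -0.04 (SE 0.03, adjusted p = 0.517 in edgeR) and Cntnap2, a neurexin relative that gathers potassium channels on axons, of -0.12 (SE 0.05, adjusted p = 0.114 in edgeR). Nrxn2 averaged 208 ± 16.2 CPM in cKO novelty and 217 ± 28.3 CPM in cKO naive libraries, against 201 ± 11.8 CPM in control novelty and 203 ± 33.1 CPM in control naive libraries (SD). Nrxn3 averaged 296 ± 13.8 CPM in cKO novelty and 293 ± 15.5 CPM in cKO naive libraries, against 306 ± 15.9 CPM in control novelty and 298 ± 21 CPM in control naive libraries (SD). Cntnap2 averaged 138 ± 14.1 CPM in cKO novelty and 132 ± 12.7 CPM in cKO naive libraries, against 146 ± 7.36 CPM in control novelty and 146 ± 11.3 CPM in control naive libraries (SD). Cntnap2 lay lower in cKO libraries than in controls of either exposure, with the groups overlapping.

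In the MAGUK family the difference was clearest for Dlg3, the X-linked member (ENSMUSG00000000881, chrX:100767722-100818410, plus strand). Dlg3 ranged from 212 to 239.5 CPM (median 229) in cKO novelty libraries and from 207 to 254 CPM (median 227) in cKO naive libraries. Dlg3 had 238, 256, 256, 259 and 291 CPM in control novelty libraries and ranged from 239 to 268 CPM (median 251) in control naive libraries. After novelty 2 cKO libraries, and in naive mice 1, lay above the lowest control library of that exposure, and 10 of 13 cKO libraries lay below every control library. Dlg3 had a log2 fold change of -0.17 (SE 0.03, adjusted p = 0.00195 in edgeR) on average, in 24 of 24 fits that left out 1 library, and -0.19 (SE 0.05, adjusted p = 0.0331 in edgeR) after novelty. After novelty it passed in 6 of 12 fits that left out 1 library and did not pass without cKO novelty library 4, 5 or 6, or control novelty library 1, 2 or 5 (adjusted p 0.0549 to 0.0778). Dlg4 passed after novelty, at -0.15 (SE 0.04, adjusted p = 0.0471 in edgeR), and not on average, at -0.10 (SE 0.03, adjusted p = 0.065 in edgeR). It was at 669.8 ± 26 CPM in cKO novelty libraries and 746 ± 41.5 CPM in control novelty libraries (SD), and at 696 ± 52.8 CPM in cKO naive libraries and 715 ± 43.6 CPM in control naive libraries. The call for Dlg4 held in 3 of 12 fits that left out 1 library and did not pass without cKO novelty library 1, 2, 4, 5 or 7, or control novelty library 1, 3, 4 or 5 (adjusted p 0.0511 to 0.105).

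Dlg2, which anchors potassium channels and receptors, had a log2 fold change of -0.09 (SE 0.03, adjusted p = 0.068 in edgeR), and Dlg1, which traffics AMPA receptors, of 0.02 (SE 0.07, adjusted p = 0.899 in edgeR). Dlg2 averaged 300.2 ± 18.7 CPM in cKO novelty and 296 ± 11 CPM in cKO naive libraries, against 319 ± 13.3 CPM in control novelty and 313 ± 17 CPM in control naive libraries (SD). Dlg1 averaged 158 ± 16.6 CPM in cKO novelty and 158 ± 31.7 CPM in cKO naive libraries, against 154 ± 18.6 CPM in control novelty and 157 ± 6.74 CPM in control naive libraries (SD). Neither passed, and Dlg1 varied more within cKO naive libraries than between genotypes.

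Among the Dlgap genes, which bind the guanylate kinase domain of MAGUKs, only Dlgap1 passed (ENSMUSG00000003279, chr17:69969073-70821413, plus strand). Dlgap1 ranged from 665 to 742 CPM (median 702) in cKO novelty libraries and from 696 to 797 CPM (median 705) in cKO naive libraries. Dlgap1 had 734, 769.9, 806, 827 and 849 CPM in control novelty libraries and ranged from 743 to 829 CPM (median 799) in control naive libraries. In naive mice 4 of 6 cKO libraries lay below every control library, and after novelty 6 of 7 did. Its log2 fold change was -0.15 (SE 0.03, adjusted p = 0.00141 in edgeR) on average and -0.19 (SE 0.04, adjusted p = 0.021 in edgeR) after novelty. The average passed in 24 of 24 fits that left out 1 library. After novelty it passed in 10 of 12 fits that left out 1 library and did not pass without control novelty library 1 or 5 (adjusted p 0.0534 to 0.065). Dlgap2, Dlgap3 and Dlgap4 had log2 fold changes of 0.07, 0.02 and 0.01, and none of these passed. Dlgap2 averaged 73.9 ± 2.21 CPM in cKO novelty and 75.7 ± 7.41 CPM in cKO naive libraries, against 72.4 ± 4.26 CPM in control novelty and 70.2 ± 4.69 CPM in control naive libraries (SD). Dlgap3 averaged 156 ± 22.6 CPM in cKO novelty and 155 ± 23.9 CPM in cKO naive libraries, against 157 ± 10.3 CPM in control novelty and 149 ± 25.5 CPM in control naive libraries (SD). Dlgap4 averaged 221 ± 18.5 CPM in cKO novelty and 218 ± 23.5 CPM in cKO naive libraries, against 219.9 ± 10.6 CPM in control novelty and 217 ± 29.3 CPM in control naive libraries (SD). The spread within groups was larger than these differences for Dlgap3 and Dlgap4.

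The deeper scaffold layer did not pass by genotype: 0 of the 5 Shank and Homer genes did. Shank1, Shank2 and Shank3, which tie Dlgap to Homer and actin, had log2 fold changes of -0.07 (SE 0.06, adjusted p = 0.5 in edgeR), 0.05 (SE 0.03, adjusted p = 0.323 in edgeR) and 0.10 (SE 0.08, adjusted p = 0.464 in edgeR). Shank1 averaged 331 ± 38.4 CPM in cKO novelty and 331 ± 39.6 CPM in cKO naive libraries, against 359 ± 34.7 CPM in control novelty and 338 ± 39.1 CPM in control naive libraries (SD). Shank2 averaged 208 ± 7.61 CPM in cKO novelty and 201 ± 13.4 CPM in cKO naive libraries, against 202 ± 6.76 CPM in control novelty and 193 ± 12.3 CPM in control naive libraries (SD). Shank3 averaged 199 ± 28.6 CPM in cKO novelty and 195 ± 36.2 CPM in cKO naive libraries, against 189 ± 19.1 CPM in control novelty and 180.0 ± 19 CPM in control naive libraries (SD). All 3 had overlapping genotypes.

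Homer3, a Homer of the cerebellum and of some hippocampal cells, was the most variable of the 40 genes. Homer3 ranged from 24.9 to 58.4 CPM (median 36) in cKO novelty libraries and from 19.8 to 49.8 CPM (median 34.5) in cKO naive libraries. Homer3 had 17.8, 23.4, 24.9, 28.1 and 29 CPM in control novelty libraries and ranged from 19 to 38.7 CPM (median 23.1) in control naive libraries. The highest cKO libraries exceeded every control library, but most libraries of the genotypes overlapped. The log2 fold change of 0.52 (SE 0.18, adjusted p = 0.0548 in edgeR) missed the threshold, and DESeq2 gave an adjusted p of 0.0267 for it. Homer3 shares 25.4% of its exon bases with Ddx49 on the opposite strand. In cKO naive libraries 1 and 5 Homer3 was at 49.8 and 44.6 CPM, while Lrrtm3 was at 19.3 and 19.8 CPM, its lowest in that group. Those libraries also had the highest summed levels of markers of neighbouring fields in the group, 192 and 221 CPM for dentate granule markers (77.9 to 94.8 CPM in the other 4) and 660 and 596 CPM for CA3 markers (368 to 504 CPM in the other 4). The part of these neighbouring cells in the differences of Homer3 and Lrrtm3 was not tested.

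Gphn, the gephyrin gene, did not differ beyond its spread. Gphn averaged 94.9 ± 3.25 CPM in cKO novelty and 97.5 ± 4.99 CPM in cKO naive libraries, against 95.4 ± 4.28 CPM in control novelty and 99.7 ± 8.8 CPM in control naive libraries (SD). By genotype the log2 fold change of Gphn was -0.02 (SE 0.03, adjusted p = 0.768 in edgeR), so of the inhibitory pair only Nlgn2 passed. A difference between the genotype effects on Gphn and Nlgn2 was not tested.

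Of the 9 signalling proteins of the postsynaptic density, Cnksr2 passed on average and Cnksr2 and Kalrn passed after novelty. Cnksr2 is an X-linked scaffold that joins MAGUKs to Ras signalling (ENSMUSG00000025658, chrX:157821436-158043294, minus strand). Cnksr2 ranged from 309 to 388 CPM (median 363) in cKO novelty libraries and from 341 to 407 CPM (median 366) in cKO naive libraries. Cnksr2 had 390.4, 414, 417, 443 and 485 CPM in control novelty libraries and ranged from 358 to 478 CPM (median 406) in control naive libraries. After novelty the genotypes did not overlap, with the highest cKO library just under the lowest control, and in naive mice they did. Its log2 fold change was -0.22 (SE 0.05, adjusted p = 0.00336 in edgeR) on average and -0.25 (SE 0.06, adjusted p = 0.0249 in edgeR) after novelty. The average passed in 24 of 24 fits that left out 1 library. After novelty it passed in 8 of 12 fits that left out 1 library and did not pass without cKO novelty library 5, or control novelty library 1, 2 or 5 (adjusted p 0.0524 to 0.0696). Kalrn, an exchange factor for Rac that shapes spines, had its only call after novelty. Kalrn ranged from 714 to 781 CPM (median 736) in cKO novelty libraries and from 694 to 880.3 CPM (median 768) in cKO naive libraries. Kalrn had 764, 808, 860.4, 888 and 903 CPM in control novelty libraries and ranged from 690.4 to 843 CPM (median 779) in control naive libraries. The control novelty libraries were highest on average and overlapped all other groups. The log2 fold change was -0.18 (SE 0.05, adjusted p = 0.0369 in edgeR) after novelty and -0.01 (SE 0.06, adjusted p = 0.979 in edgeR) in naive mice. After novelty it passed in 5 of 12 fits that left out 1 library and did not pass without cKO novelty library 1, 4 or 5, or control novelty library 1, 2, 4 or 5 (adjusted p 0.0589 to 0.0931).

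The other 7 signalling genes did not pass by genotype. Agap2 averaged 825 ± 54.9 CPM in cKO novelty and 836 ± 119 CPM in cKO naive libraries, against 907 ± 95.3 CPM in control novelty and 864 ± 74.2 CPM in control naive libraries (SD). Iqsec1 averaged 232 ± 10.8 CPM in cKO novelty and 237 ± 18.3 CPM in cKO naive libraries, against 237 ± 5.81 CPM in control novelty and 233 ± 16.7 CPM in control naive libraries (SD). Iqsec2 averaged 207 ± 12.8 CPM in cKO novelty and 218 ± 27 CPM in cKO naive libraries, against 227 ± 21.2 CPM in control novelty and 221 ± 9.81 CPM in control naive libraries (SD). Agap2 lay lower in cKO libraries at -0.09 (SE 0.06, adjusted p = 0.307 in edgeR), as did Iqsec2, an X-linked exchange factor for Arf proteins, at -0.08 (SE 0.05, adjusted p = 0.301 in edgeR), and Iqsec1, its autosomal relative, was at -0.0049 (SE 0.03, adjusted p = 0.953 in edgeR). Tanc1 averaged 111 ± 12.6 CPM in cKO novelty and 110.3 ± 24.1 CPM in cKO naive libraries, against 124 ± 17.2 CPM in control novelty and 125 ± 12 CPM in control naive libraries (SD). Tanc2 averaged 227 ± 15.3 CPM in cKO novelty and 228 ± 10.1 CPM in cKO naive libraries, against 228 ± 7.29 CPM in control novelty and 230.1 ± 10.2 CPM in control naive libraries (SD). Begain averaged 81.1 ± 7.65 CPM in cKO novelty and 82.2 ± 7.16 CPM in cKO naive libraries, against 79.2 ± 6.13 CPM in control novelty and 80 ± 9.38 CPM in control naive libraries (SD). Tanc1 and Tanc2, scaffolds that bind MAGUKs, had log2 fold changes of -0.17 and -0.01, and Begain, which also binds them, of 0.04. Baiap2, an actin regulator downstream of Rac, had a log2 fold change of -0.03 (SE 0.05, adjusted p = 0.769 in edgeR) by genotype.

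Separated by exposure, 9 of 40 genes were lower in cKO libraries after novelty and 0 were higher, and 1 was lower in naive mice and 0 were higher. The share after novelty was 22.5%, against 2.40% of all 16188 genes tested that were lower and 4.53% in either direction. In naive mice it was 2.5%, against 0.495% of 16360 genes that were lower and 0.801% in either direction. The groups did not overlap for Nlgn2, Cnksr2 and Slitrk4 after novelty (7.5%, against 3.14% of all genes) and for Lrrc4c and Slitrk4 in naive mice (5%, against 1.91%). The count after novelty depended on single libraries: it was 3 without cKO novelty library 5, 4 without cKO novelty library 4 and 10 without cKO novelty library 3. Among controls after novelty, leaving out library 5 gave 2, library 1 gave 3 and library 2 gave 4. It was 1 in every such fit in naive mice. The difference between these counts is no test of a difference between exposures, and the interaction, the test of such a difference, passed for 0 genes.

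The genotype differences mostly had the same sign in both exposures, which share no library. The median log2 fold change of the 40 genes was -0.09 after novelty and -0.03 in naive mice, against 0.01 and 0.00301 over all genes. Across the 40 genes the log2 fold changes after novelty and in naive mice had a Pearson correlation of 0.896 and a Spearman correlation of 0.846, with the same sign for 37 of 40. Without Homer3 the Pearson correlation was 0.866. Over all 16095 genes tested in both it was 0.439, with the same sign for 68.6%. Genes are not independent replicates, and these values are a description across genes. Sizes differed for single genes, as for Dlg4 with -0.15 after novelty and -0.04 in naive mice. All 11 genes that were lower on average had a negative log2 fold change in both exposures. They were picked by the average of both differences, so this agreement is partly fixed by the choice. The lowest values were -0.36 for Lrrtm3 after novelty and -0.42 for Slitrk4 in naive mice.

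**Figure D4:**
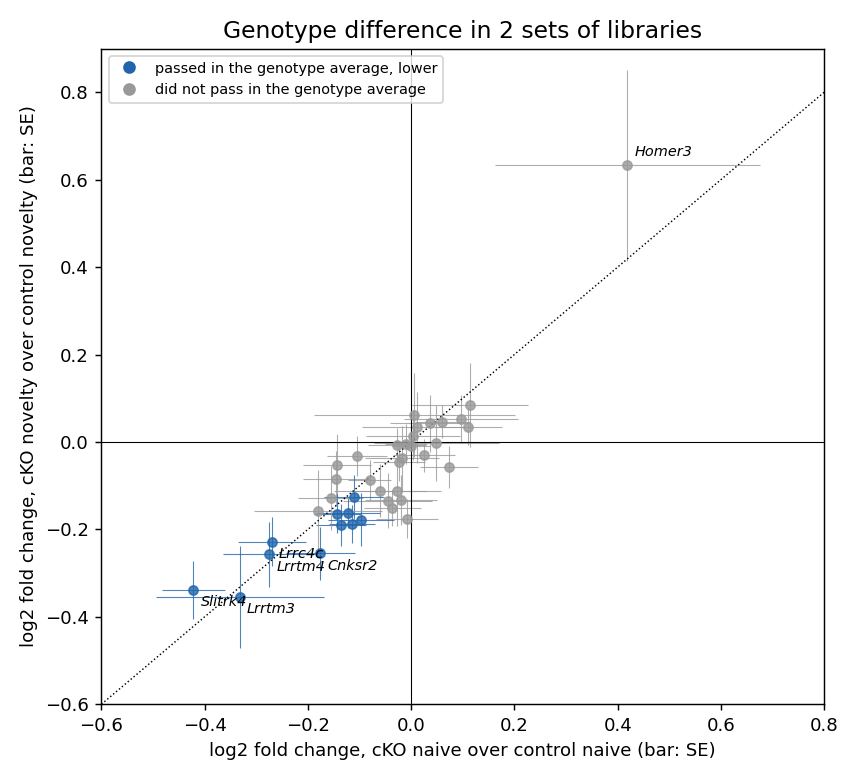
Log2 fold change of each of the 40 genes with its standard error, cKO over control, after novelty (vertical axis) against naive mice (horizontal axis), which share no library. The dotted line marks equal values. The 11 genes lower on average (blue) lie in the lower left, and Homer3 stands alone in the upper right.

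Levels of cell type markers moved beside these differences. The summed level of 5 CA1 pyramidal markers was 795 to 939 CPM in cKO novelty and 793 to 943 CPM in cKO naive libraries, against 940 to 1037 CPM in control novelty and 848 to 1119 CPM in control naive libraries. In the genotype average 1 of these 5 markers was lower (Mpped1, at -0.17), and the median of the 5 was -0.17. Of the interneuron markers 3 of 6 were lower (Gad1, Gad2 and Pvalb), with summed levels of 853 to 1009 CPM in cKO novelty and 819 to 931 CPM in cKO naive libraries, against 927 to 1051 CPM in control novelty and 913 to 1071 CPM in control naive libraries. Of 4 oligodendrocyte markers 2 were lower (Mog at -0.31 and Cnp at -0.21) and all 4 lay below 0, with summed levels of 1625 to 3171 CPM in cKO novelty and 2128 to 2624 CPM in cKO naive libraries, against 2272 to 2739 CPM in control novelty and 2225 to 2666 CPM in control naive libraries. Of 5 dentate granule markers 1 was lower (C1ql2 at -0.86), with a median of -0.21, and of 4 endothelial markers 1 was lower (Ly6c1 at -0.27), with a median of -0.15. The CA3 markers went both ways: 1 of 5 was lower (Coch at -0.40, with a mean of 4.01 CPM), while Bok at 0.20, Iyd at 0.67 and Cpne4 at 0.29 lay above 0 without passing, and the median of the 5 was 0.20, and 0.34 after novelty. Of astrocyte, oligodendrocyte precursor, microglial and choroid plexus markers 0 passed. None of these markers was at 0 in any group. The part of cell composition in the lower levels of the 11 genes was not tested.

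Chromosome and gene structure were compared next, as a description. Of the 5 genes on the X chromosome (Slitrk4, Dlg3, Cnksr2, Nlgn3 and Iqsec2), 4 were lower in cKO libraries (80%), against 7 of 35 on autosomes (20%). Among all genes tested 9.64% on the X chromosome and 6.21% on autosomes were lower. Of the 7 genes with a single coding exon 4 were lower and all 7 lay below 0, against 7 of 33 lower among the others, of which 22 lay below 0. Among all genes tested 9.14% of those with a single coding exon and 6.42% of the others were lower. Of the 11 lower genes 7 were thus autosomal and 7 had more than 1 coding exon, but these were not the same genes. Only Nlgn2, Lrrtm3, Lrrtm4 and Dlgap1 were both. By genomic span 2 of 3 genes under 10 kb, 4 of 16 of 10 to 100 kb and 5 of 21 over 100 kb were lower, with medians of -0.14, -0.08 and -0.04, and over all genes the shares were 6.11%, 5.63% and 9.63%. Span and log2 fold change had a Pearson correlation of -0.06 across the 40 genes.

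GC content gave a closer relation. Across the 40 genes the log2 fold change by genotype and the GC content of the longest transcript had a Pearson correlation of 0.555 and a Spearman correlation of 0.568, against 0.176 and 0.212 over 16542 genes tested. With all genes split by GC content into 3 classes of equal size, 5 of 12 genes of the low class were lower in cKO libraries, 5 of 13 of the middle class and 1 of 15 of the high class (Nlgn2). Over all genes these shares were 8.58%, 6.49% and 3.94%. The same order thus ran through the whole table at a smaller size, and the part of base composition of the libraries in the differences of the 40 genes was not tested.

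**Figure D5:**
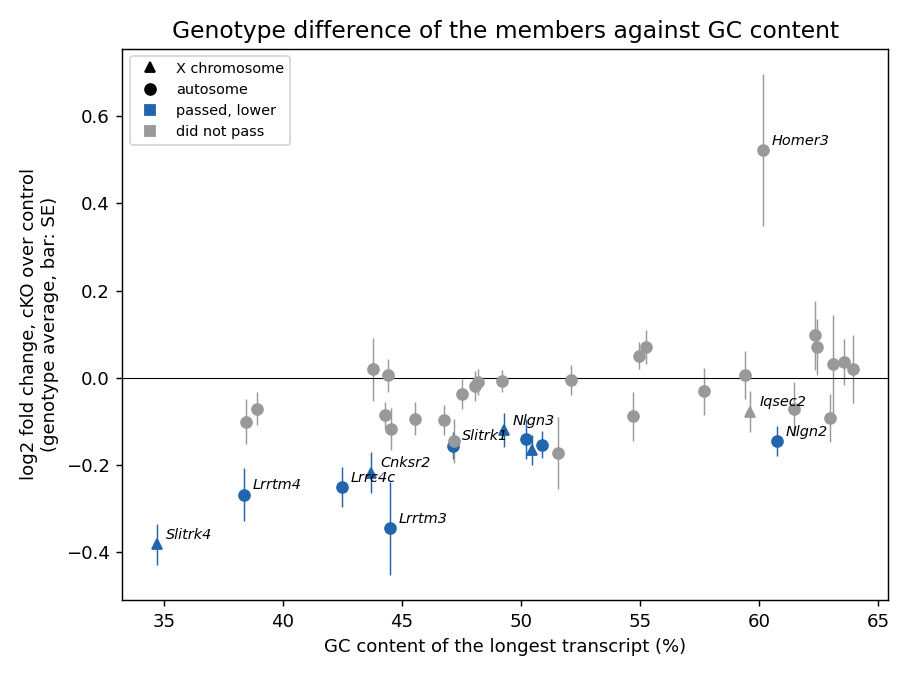
Log2 fold change by genotype with its standard error (vertical axis, cKO over control) against GC content of the longest transcript in percent (horizontal axis) for the 40 genes. Triangles mark the X chromosome and blue the 11 genes that passed. Slitrk4 has the lowest GC content and the largest decrease, and Nlgn2 is the only blue point in the high class of GC content.

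Novelty moved few of the genes. In the novelty average, 2 of 40 genes were higher after 15 min (Homer2 and Baiap2) and 1 was lower (Slitrk1), which is 7.5%, against 6.55% of all 16744 genes tested. The share was thus near that of all genes. The median log2 fold change was -0.01 for the 40 genes and -0.01 for all genes. With upper-quartile scaling 1 of the 40 genes was higher and 2 were lower, and of all genes that passed 589 of 1093 were higher, against 741 of 1097 with TMM. The gene closest to the threshold outside it was Lrrc4c, at -0.13 (SE 0.05, adjusted p = 0.0908 in edgeR).

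Homer2, a constitutive relative of Homer1 that links metabotropic receptors to Shank, was higher after novelty. Homer2 ranged from 171 to 202 CPM (median 194) in cKO novelty libraries and from 167 to 189 CPM (median 179) in cKO naive libraries. Homer2 had 183, 192, 200.5, 206 and 206 CPM in control novelty libraries and ranged from 151 to 192 CPM (median 173) in control naive libraries. The exposures overlapped in both genotypes. Its log2 fold change was 0.14 (SE 0.04, adjusted p = 0.0192 in edgeR) on average, 0.08 (SE 0.04, adjusted p = 0.479 in edgeR) in cKO mice and 0.20 (SE 0.06, adjusted p = 0.147 in edgeR) in controls. The average passed in 24 of 24 fits that left out 1 library. Homer1 had a log2 fold change of 1.16 (SE 0.05, adjusted p = 1.61e-15 in edgeR) in the same contrast. Baiap2 was also higher. Baiap2 ranged from 252 to 326 CPM (median 266) in cKO novelty libraries and from 208 to 287 CPM (median 235) in cKO naive libraries. Baiap2 had 247, 258, 265, 308 and 321 CPM in control novelty libraries and ranged from 218 to 259 CPM (median 246) in control naive libraries. The exposures overlapped in both genotypes, and cKO novelty library 6 and control novelty libraries 1 and 4 were the highest. The log2 fold change was 0.19 (SE 0.05, adjusted p = 0.0338 in edgeR) on average, 0.18 (SE 0.08, adjusted p = 0.298 in edgeR) in cKO mice and 0.19 (SE 0.07, adjusted p = 0.264 in edgeR) in controls. It passed in 16 of 24 fits that left out 1 library and did not pass without cKO novelty library 6, cKO naive library 2, 3 or 4, control novelty library 1 or 4, or control naive library 2 or 3 (adjusted p 0.0519 to 0.08).

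Slitrk1 was lower after novelty in both genotypes, with the library values given above. Between exposures the log2 fold change was -0.16 (SE 0.03, adjusted p = 0.00127 in edgeR) on average, -0.17 (SE 0.04, adjusted p = 0.0367 in edgeR) in cKO mice and -0.16 (SE 0.05, adjusted p = 0.164 in edgeR) in controls. Of 13 naive and novelty cKO libraries, all novelty libraries but 1 lay below the lowest naive library. The average passed in 24 of 24 fits that left out 1 library, and in cKO mice it passed in 5 of 13 fits that left out 1 library and did not pass without cKO novelty library 2, 4 or 6, or cKO naive library 1, 2, 3, 4 or 6 (adjusted p 0.0638 to 0.104). Of the 11 leucine-rich repeat genes 10 lay below 0 in the novelty average, with a median log2 fold change of -0.09, and Slitrk1 was the 1 that passed. Of the 40 genes 21 lay below 0, and of all genes 57%, with a median of -0.01. A shift of this family with novelty was not tested.

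By genotype, 1 of 40 genes was lower after novelty in cKO mice (Slitrk1, 2.5%, against 0.484% of 16339 genes lower and 2.41% in either direction), and 0 passed in controls, against 1.22% of 16100 genes. In controls 4 of the 40 genes (10%) had an unadjusted p below 0.05 in edgeR, near the 11% of all genes. DESeq2 called 1 of the 40 (Homer2, higher) and 377 of 16099 genes. No gene had exposures that did not overlap in either genotype, against 1.98% of genes in cKO mice and 2.40% in controls. Across the 40 genes the novelty effects in cKO mice and in controls, which share no library, had a Pearson correlation of 0.594 and the same sign for 26 of 40, against 0.371 and 61.7% over 16023 genes.

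Whether the response to novelty depended on Kat2a was tested as the interaction. None of the 40 genes and none of 16744 genes passed in edgeR (0%) or in DESeq2. At an unadjusted p below 0.05 there were 1 of 40 genes (Kalrn) and 688 of all genes. Kalrn had a log2 difference of -0.17 (SE 0.08, adjusted p = 1 in edgeR), the novelty effect in cKO mice minus that in controls. It was at 746 ± 28.7 CPM in cKO novelty and 771 ± 68.5 CPM in cKO naive libraries, and at 845 ± 57.6 CPM in control novelty and 776 ± 50.8 CPM in control naive libraries (SD).

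A list of partner genes of these proteins, such as their ligands, receptors and actin regulators, gave a wider view. It named 70 genes, of which 67 were found and tested, and it too was chosen with earlier results of these data known. In the genotype average 12 were lower in cKO libraries (17.9%, against 6.32% of all genes) and 3 higher, together 22.4%, against 12% of all genes, with a median log2 fold change of -0.06. The lowest p-values belonged to Lrfn5, an adhesion protein that binds receptor phosphatases, at -0.25 (SE 0.03, adjusted p = 1.48e-05 in edgeR), Cyfip2, a subunit of the WAVE actin complex, at -0.17 (SE 0.03, adjusted p = 0.000101 in edgeR), and the latrophilin ligands Flrt2 at -0.29 (SE 0.05, adjusted p = 0.000404 in edgeR) and Flrt3 at -0.34 (SE 0.06, adjusted p = 0.000551 in edgeR). The 3 that were higher were Arhgef7 at 0.09, Ptprf at 0.20 and Ntng2 at 0.20. Ptprf and Ntng2 encode presynaptic partners of the Lrrc4 family. After novelty 7 were lower and 1 (Ptprf) higher in cKO libraries, together 11.9%, against 4.53% of all genes, and in naive mice 2 were lower (Lrfn5 and Cyfip2) and 0 higher, 2.99% against 0.801%. In the novelty average 3 were higher (Homer1, Nptx2 at 0.59 and Synpo at 0.11) and 0 lower, 4.48% against 6.55% of all genes. In cKO mice 1 was higher (Homer1, 1.49% against 2.41%), and in controls 2 were (Homer1 and Nptx2, 2.99% against 1.22%).

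The authors' deposited table of DESeq2 results for cKO against control after novelty called 11 of the 40 genes lower and 0 higher at an adjusted p below 0.05, and held all 9 that passed here. Its 2 further genes were Lrrtm3 at -0.34 and Lrrtm4 at -0.26. The authors' deposited table for naive mice called Slitrk4 at -0.42 and Lrrc4c at -0.27. In the authors' deposited table for novelty in controls Homer2 was higher at 0.21, and in that for cKO mice Slitrk1 was lower at -0.17. Of all genes listed in the authors' deposited table, 4.61% were lower by genotype after novelty and 1.91% in naive mice. By exposure 4.41% of all genes passed in cKO mice and 2.79% in controls in the authors' deposited table, above the 2.5% of the 40 genes in each. The log2 fold changes in the authors' deposited tables had the same sign as those given here for 39 or 40 of the 40 genes in each comparison.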

How the data were processed

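The 40 genes, the partner and marker lists and the tests were chosen with earlier results of these data known. Each library's deposited counts are whole reads per Ensembl gene, unnormalized. STAR 2.3.0, HTSeq, DESeq2 and the build GRCm38.p2 are named in the submitters' processing notes, while their settings, annotation release and strand mode were not given in the sources used here. The labels name cluster kits for paired-end and single-end runs without assigning them to libraries. The authors' deposited comparison tables give log2 fold changes, p-values and base means, the last a normalized signal per gene, per the file headers, and paired 16355 gene IDs with symbols. Each count table ends in 5 summary entries that name no gene. They were left out of library sizes, and of these, reads outside any feature came to 7.58% to 10.4% of a library, ambiguous reads to 1.06% to 1.18% and reads mapping to several places to 14.8% to 18%. No per-library columns were left out (0).

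Genes were kept by edgeR's filterByExpr with a minimum count of 10, and libraries were scaled by TMM. The quasi-likelihood test of edgeR 4.0.16 in R 4.3.3 was fitted to the groups of each comparison, or to all 24 libraries for the averages and the interaction, and p-values were adjusted over all genes tested (Benjamini-Hochberg, threshold 0.05). DESeq2 1.42.0 was an alternative, with other scaling, filters, sets of libraries and terms, and the code was tested on simulated data. Genes described in full were those called in a comparison with 1 sign in every fit that left out 1 library, at most 14 by adjusted p, and all 40 were named. Exon lengths and GC content came from GENCODE vM21. No 2 libraries held the same values, and the highest correlation between libraries was 0.997. Ranges and spreads are over libraries, and depths of 10.7 to 35.8 M reads limit their precision. 1 marker gene is not reported here.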

Additional observations from a re-analysis of the deposited data

Results flagged for a closer look

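In 9 of 160 combinations of gene and group, 1 library stood apart from the others of its group by Dixon's criterion at 95%, which chance alone gives in about 1 in 20. Control naive library 2, the shallowest library, was the highest of its group for Nlgn3 (76.0 CPM, the next at 63.1), Lrrtm2 (135 CPM, the next at 108) and Lrrtm4 (31.6 CPM, the next at 25.2). Without it Lrrtm4 still passed in the genotype average and Nlgn3 did not. Control naive library 6 was lowest for Dlg1 at 144 CPM, with the next at 158 CPM. Among cKO novelty libraries, library 6 was highest for the MAGUK Dlg4 (724 CPM, the next at 675) and the actin regulator Baiap2 (326 CPM, the next at 271), and without it Baiap2 did not pass in the novelty average. Among control novelty libraries, Nlgn2 was highest in library 4 (253 CPM, the next at 241), Lrrc4c in library 3 (153 CPM, the next at 136) and Slitrk5 in library 1 (114 CPM, the next at 97.2). Without library 1 Slitrk5 did not pass in the genotype average, without library 3 Lrrc4c passed there but not after novelty, and Nlgn2 passed in both without library 4.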

How the results depend on the processing

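No called gene changed direction under any alternative. Of 25 calls (a gene in a comparison), 25 stood with DESeq2, 20 with no filter on low counts, 20 with upper-quartile scaling, 22 with a term for libraries numbered 1 to 3 against 4 and above, and 8 of 11 with one fit over all 24 libraries. Within libraries numbered 1 to 3, 3 of the 25 stood, and 4 within those numbered 4 and above, in fits with fewer samples.

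For the genotype average, 11 of the 40 genes were called as reported, 3 within libraries 1 to 3 and 3 within libraries 4 and above, and 8 to 12 with 1 library left out. After novelty 9 were called, against 5 with the replicate block, 4 in the same libraries without the block (an alternative chosen after seeing the data), 0 within either part, and 2 to 10 with 1 library left out. In naive mice 1 was called, against 2 with DESeq2, 2 in one fit over all libraries, 0 within either part and 1 in each fit that left out a library. For the novelty average, 3 were called, against 2 with the replicate block, 1 in the same libraries without it, 0 and 1 within the parts, and 2 to 4 with 1 library left out. For novelty in cKO mice 1 was called, against 0 with the replicate block, 0 within either part and 0 to 1 with 1 library left out. For novelty in controls 0 were called, against 1 with DESeq2, 1 in one fit, 2 within libraries 4 and above, and 0 to 1 with 1 library left out (1 without control naive library 2). Over all genes, libraries 1 to 3 and libraries 4 and above gave 402 of 16684 and 405 of 16964 in the genotype average. After novelty they gave 17 of 16075 and 121 of 16481, and in naive mice 3 of 16422 and 5 of 16448. The novelty average gave 206 of 16684 and 369 of 16964. Novelty in cKO mice gave 15 of 16330 and 70 of 16596, and in controls 25 of 16193 and 281 of 16223. The interaction called 0 in every fit run, with 688 genes at an unadjusted p below 0.05 in edgeR and 651 in DESeq2.

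Over all genes, DESeq2 called 465 in naive mice (131 as reported), 1168 after novelty (733), 653 by exposure in cKO mice (393) and 377 by exposure in controls (196). One fit over all libraries called 322 in naive mice and 305 for novelty in controls. The replicate block called 70, 397, 207 and 98 in those 4 comparisons, 1337 in the genotype average (2017) and 718 in the novelty average (1097), and the same libraries without the block 131, 337, 287, 128, 1167 and 669. For novelty in cKO mice 314 of 393 genes were higher, and 240 of 358 with upper-quartile scaling. Same-numbered libraries deviated together in some pairs (correlations -0.166 to 0.376). They were over 0.1 in 1 of 5 pairs for novelty in controls, 3 of 6 for novelty in cKO mice, 1 of 6 in naive mice and 1 of 5 after novelty. The mean correlations were 0.0152, 0.0535, 0.00807 and 0.0526 in that order. The numbers were not read as pairs in the main fits, and the replicate block gives the counts if they are. The causes of the shifts in counts between these fits were not tested. Differences of under about 8% were not called for any of the 40 genes at this depth and spread.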
